A study of Mus musculus with 6 samples.

Results

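The genes described here encode the extracellular matrix, the meshwork of collagens, laminins, glycoproteins and proteoglycans that cells secrete and bind. They were chosen by gene symbol: every collagen chain gene (Col, number, a, number), every laminin chain gene (Lama, Lamb or Lamc and a digit) and 17 named matrix genes. The deposited table of 35275 genes held 72 of them, namely 44 collagen chains, 11 laminin chains and all 17 named genes. RNA came from cultured primary microglia, the brain's own macrophages, of C57/BL6 mice. The 3 control samples had no Tregs (regulatory T cells, which restrain immune responses). The 3 co-cultured samples spent 2 days beneath inserts holding Tregs. Those Tregs had spent 24 hours above brain slices taken 5 days after transient middle cerebral artery occlusion (tMCAO), an ischemic stroke model. The labels record neither slices nor inserts for the controls, so effects of Tregs, slice material and inserts cannot be told apart. The labels give no age, sex or number of animals and do not say that replicates were separate cultures, so the p values reflect spread among 6 samples that may be technical replicates.

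Collagen chains assemble as trimers. Fibrillar collagens such as types I, III and V form the fibers of connective tissue, and collagen IV forms the network of basement membranes. Laminins join an alpha, a beta and a gamma chain, and nidogen 1 and perlecan (Hspg2) link the laminin and collagen IV networks. In the brain, basement membranes surround blood vessels and are made by endothelial cells, pericytes, astrocytes and, in some vessels, fibroblasts. Macrophages are known less for fibers than for fibronectin, thrombospondin 1 and transglutaminase 2. Integrins, CD44 and syndecans read the matrix at the cell surface.

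Levels are CPM (counts relative to library size), scaled by the trimmed mean of M values (TMM), in controls 1, 2 and 3 and co-cultured samples 1, 2 and 3 in that order. Means carry the SD with n = 3 per group. Log2 fold changes are co-cultured minus control, and genes with a Benjamini-Hochberg adjusted p below 0.05 in edgeR's two-sided quasi-likelihood test over all genes are called changed. The libraries held 16972758 to 22084542 counts. Microglial markers summed to between 6050 and 6242 CPM in controls and between 5147 and 5442 CPM after co-culture, with Csf1r at the top and Siglech near 0, at 18 counts over all libraries. Mitochondrial genes held 1.32% to 1.38% of control counts and 0.636% to 0.772% of co-cultured counts. Ribosomal protein genes, by symbol, held 1.75% to 1.93% and 1.09% to 1.27%. The part of these shifts in the results was not tested.

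Level classes separated the matrix genes, set by the mean CPM over all 6 libraries without correction for length. Of the 72, 23 had at least 5 CPM and are called abundant, 27 passed the low-count filter below that level, and 22 stayed near the floor and were not tested. Of the 50 tested genes, 13 rose and 16 fell, together 58%. Over all 13274 genes tested, 50.9% were called, 25.9% higher and 25% lower, so the share of matrix genes called was near that of genes in general. Upward calls made up 50.8% of all calls, and 40% with upper-quartile scaling, under which 13 matrix genes were higher and 17 lower. The median log2 fold change of the matrix genes was -0.07, against -0.01 over all genes. Of the 50, 6 were called at least 2-fold higher and 11 at least 2-fold lower, where 5.03% and 4.91% of all genes tested were. The groups did not overlap at 12 tested matrix genes that were higher and 13 that were lower, and at 57.2% of all genes. Among abundant members 8 rose and 8 fell of 23 (69.6% called, against 58.5% of all genes at that level). Among the 27 low members 5 rose and 8 fell (48.1%, against 32.3%). The counts given above include Dcn, which passed the low-count filter only through the co-cultured libraries. They also include Col23a1 and Col24a1, which passed it only because all controls did. The changes of these genes are a description.

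**Figure D1:**
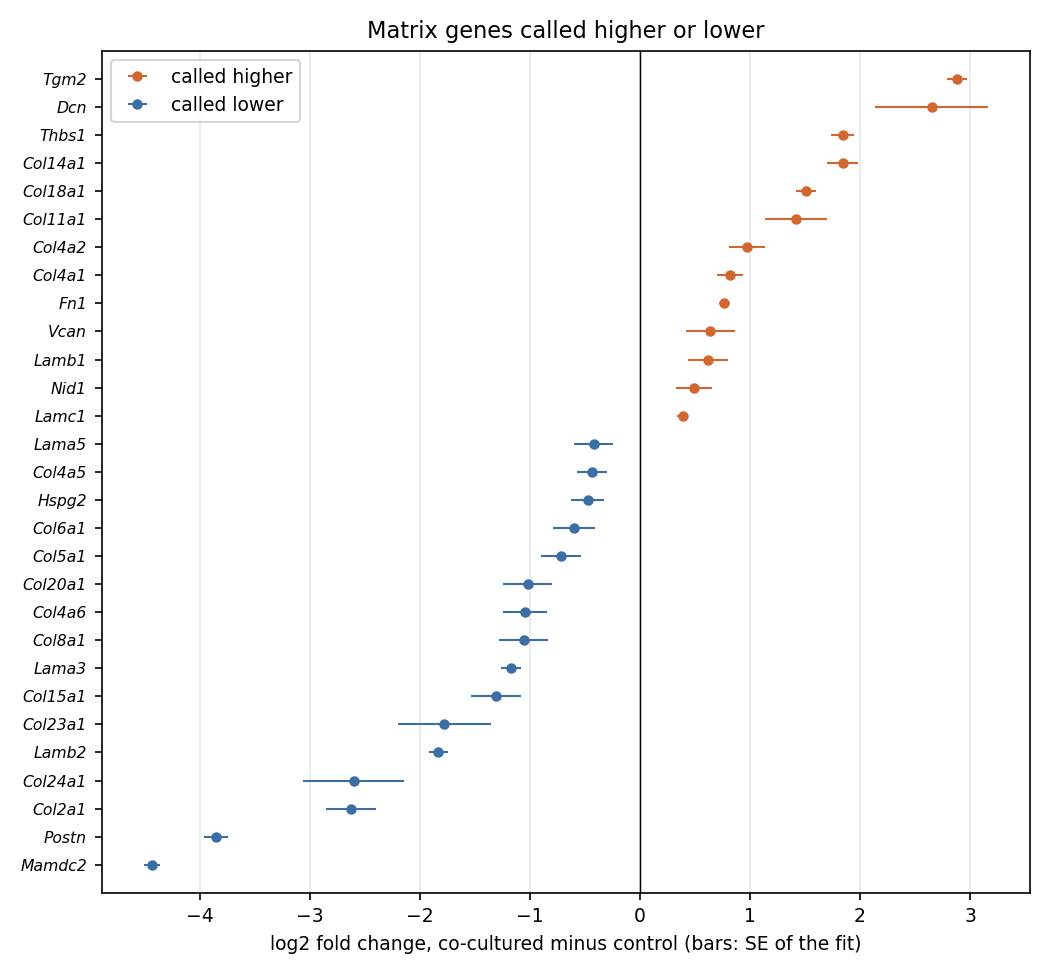
Log2 fold change (co-cultured minus control, x axis) of each of the 29 matrix genes called, 13 higher and 16 lower, with the SE of the fit as bars. The genes run from Mamdc2 at -4.44 to Tgm2 at 2.88. Dcn, Col23a1 and Col24a1 passed the low-count filter only because of the group where they are high.

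Few genes held most of the matrix counts, which are not corrected for length. Per length, Ecm1 (66.2 FPKM) and Mamdc2 (56.3 FPKM) stood above Thbs1 (54.6 FPKM) in the control means. In controls the 72 genes took 0.179%, 0.182% and 0.180% of the library counts, and after co-culture 0.299%, 0.304% and 0.273%. Fn1 and Thbs1 alone supplied 51.7% ± 0.514 of these counts in controls and 71.6% ± 2.54 after co-culture. Without both genes the remaining 70 took 0.0872% ± 0.00107 and 0.0828% ± 0.00353 of the libraries. The larger share after co-culture therefore sat in Fn1 and Thbs1. The 22 near-floor genes held 0.222% ± 0.156 and 0.0931% ± 0.00555 of the matrix counts.

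**Figure D2:**
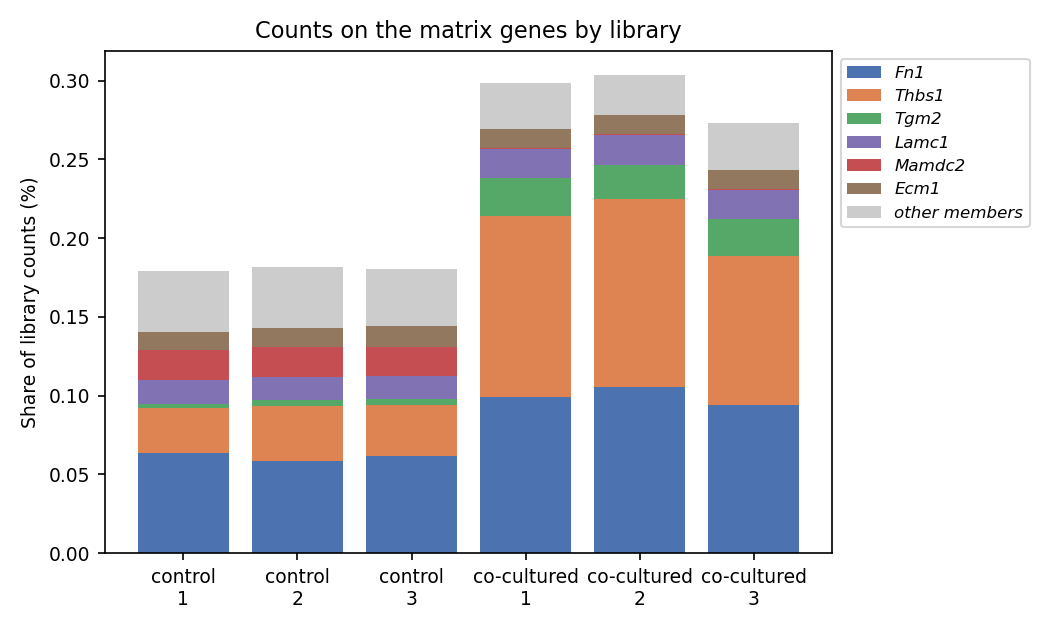
Share of each library's counts (y axis, %) that fell on the matrix genes, stacked by gene, for the 3 control and 3 co-cultured libraries. The 3 co-cultured bars reach 0.273% to 0.304% and the controls 0.179% to 0.182%, with larger Fn1, Thbs1 and Tgm2 segments and a smaller Mamdc2 segment.

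Fn1, Thbs1 and Tgm2 had the highest mean levels per length after co-culture, and all rose. Fn1 encodes fibronectin, a glycoprotein that binds integrins, collagen and fibrin (chromosome 1, 71585520 to 71653200, minus strand, GRCm38). It had 618, 575 and 608 CPM in the controls and 1027, 1076 and 960.4 CPM after co-culture. Every co-cultured sample lay above every control, and the rise was 1.702-fold (log2 fold change 0.77 ± 0.05 SE, adjusted p = 3.16e-14). Thbs1 encodes thrombospondin 1, a secreted glycoprotein that binds CD36 and CD47 and can activate latent TGF-beta (chromosome 2, 118111876 to 118127133, plus strand). It had 279.6, 339.8 and 318 CPM in the controls and 1181, 1217 and 964 CPM after co-culture. The lowest co-cultured sample, replicate 3, was still far above the highest control, with a 3.59-fold rise (log2 fold change 1.84 ± 0.10 SE, adjusted p = 6.15e-07). Its FPKM rose from below that of Fn1 in each control (ratio of Thbs1 to Fn1 0.742 ± 0.0984) to above it in each co-cultured sample (1.56 ± 0.112).

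Tgm2 encodes transglutaminase 2, an enzyme that cross-links proteins, fibronectin among them (chromosome 2, 158116402 to 158146436, minus strand). It had 26.8, 34.8 and 34.9 CPM in the controls and 254, 217 and 237 CPM after co-culture. The groups were far apart, and the 7.34-fold rise was the largest among abundant members (log2 fold change 2.88 ± 0.09 SE, adjusted p = 1.36e-12). Of its exonic bases, 13.7% are shared with a transcript on the other strand and 8.03% with Rprd1b, also on the other strand, and the sources used here do not say whether counting used strand. Per length, Tgm2 had 9.14 ± 1.27 FPKM in controls and 64.1 ± 4.62 FPKM after co-culture. Ecm1 was close to it there, at 62.8 ± 1.52 FPKM. In co-cultured sample 2, Ecm1 stood above Tgm2 (64.5 against 59.2 FPKM).

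Mamdc2 and Postn had the largest falls. Mamdc2 encodes a secreted proteoglycan with MAM domains (chromosome 19, 23302609 to 23448442, minus strand) and had 183, 189 and 180.04 CPM in the controls and 7.76, 7.95 and 9.77 CPM after co-culture. No control fell near the co-cultured range, and the level was 21.6-fold lower after co-culture (log2 fold change -4.44 ± 0.07 SE, adjusted p = 1.97e-30). Among the 23 abundant members ordered by FPKM it went from rank 3 in controls to rank 9. Postn encodes periostin, a matricellular protein that binds integrins and collagen (chromosome 3, 54361109 to 54391037, plus strand), and had 40.8, 36.2 and 39.3 CPM in the controls and 2.81, 2.74 and 2.48 CPM after co-culture. The groups were again far apart, 14.5-fold lower after co-culture (log2 fold change -3.85 ± 0.11 SE, adjusted p = 1.03e-24). Its place in the FPKM order went from rank 7 to rank 20.

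The Postn window shown was chosen among the entries of this gene in the RefSeq promoter table. It is shown because Postn fell so far and because it is the only window printed here that carries TATA letters. It is taken from RefSeq (GRCm38.p6, chr3:54360857-54361156, plus strand), covers 250 bases before to 50 after the RefSeq start, and has TATAAA in capitals, 26 bases before that start. The RefSeq start lies 2 bases from the GENCODE start given above.
Postn: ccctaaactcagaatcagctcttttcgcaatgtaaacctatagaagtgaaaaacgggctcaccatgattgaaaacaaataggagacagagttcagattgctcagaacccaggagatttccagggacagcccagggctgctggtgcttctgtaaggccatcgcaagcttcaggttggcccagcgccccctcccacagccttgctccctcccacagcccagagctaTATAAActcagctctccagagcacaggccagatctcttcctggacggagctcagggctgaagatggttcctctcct
Of the 72 genes, 51 matched an entry in the RefSeq promoter table. TATAAA on either strand occurs in 13.6% of its 32851 windows of this length. A match is a description of letters only.

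The glycoproteins Ecm1 and Tnc were abundant and were not called. Ecm1, extracellular matrix protein 1, had 115, 121 and 133 CPM in the controls and 122, 125 and 119.5 CPM after co-culture (log2 fold change -0.01 ± 0.06 SE, adjusted p = 0.879). Its groups overlapped. Tnc encodes tenascin C, a glycoprotein of injured and developing tissue, and had 63.2, 63.2 and 56.3 CPM in the controls and 72.7, 49.3 and 66.01 CPM after co-culture (log2 fold change 0.04 ± 0.15 SE, adjusted p = 0.843). Co-cultured replicate 2 was below all controls and the other two were above them, and without it Tnc was called higher (log2 fold change 0.19, adjusted p = 0.0296). Fbln2, the elastic fiber protein fibulin 2, had 5.35, 7.73 and 5.64 CPM in the controls and 7.67, 4.07 and 9.33 CPM after co-culture. Its groups overlapped, with co-cultured replicate 2 the lowest sample of all. It was not called (adjusted p = 0.649), and without co-cultured replicate 2 it was called higher (log2 fold change 0.46, adjusted p = 0.0288).

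Of the basement membrane linkers chosen by the rule, Hspg2 fell and Nid1 rose. The other nidogen gene, Nid2, is outside the rule and fell. It went from 13.6 ± 0.716 to 9.57 ± 0.308 CPM (log2 fold change -0.51 ± 0.11 SE, adjusted p = 2.06e-04). Hspg2, which encodes the heparan sulfate proteoglycan perlecan, had 30.2, 26.7 and 20.6 CPM in the controls and 18.8, 15.7 and 21.3 CPM after co-culture (log2 fold change -0.47 ± 0.15 SE, adjusted p = 0.0227). Control 3 lay below the highest co-cultured sample, so the groups overlapped, and without co-cultured replicate 1 the call was lost (adjusted p = 0.0792). Nid1, nidogen 1, was a low member with 4.04, 3.46 and 3.35 CPM in the controls and 5.33, 4.73 and 5.201 CPM after co-culture (log2 fold change 0.49 ± 0.17 SE, adjusted p = 0.0142). Its groups did not overlap, but the call was lost without control replicate 2 (adjusted p = 0.0516), without control replicate 3 (0.058) and with DESeq2 (0.0673).

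Laminin chains changed in opposite directions. Lamc1 encodes the gamma 1 chain found in most laminins (chromosome 1, 153218922 to 153332786, minus strand), and it had 148, 143 and 145 CPM in the controls and 189.8, 193 and 188 CPM after co-culture. The rise was small and even across samples, 1.31-fold (log2 fold change 0.39 ± 0.05 SE, adjusted p = 4.09e-08). Lamb2, the beta 2 chain (chromosome 9, 108479736 to 108490530, plus strand), had 37.3, 36.2 and 36.3 CPM in the controls and 10.1, 9.32 and 11.4 CPM after co-culture. It was 3.56-fold lower (log2 fold change -1.83 ± 0.09 SE, adjusted p = 1.29e-18), with the co-cultured samples all far below the controls. Lamb1, the beta 1 chain and a low member, had 2.77, 2.77 and 2.61 CPM in the controls and 4.302, 4.12 and 4.08 CPM after co-culture, which was 1.53-fold higher (log2 fold change 0.62 ± 0.18 SE, adjusted p = 0.00513) and without overlap.

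Per length, the chains also differed in level. The FPKM ratio of Lamb2 to Lamb1 was 13.9 ± 0.437 in controls and 2.54 ± 0.286 after co-culture. Lamc1 stood at 19.5 ± 0.395 FPKM in controls and 24.4 ± 0.4201 FPKM after co-culture. The ratio of Lamc1 to Lamb2 in FPKM was 2.93 ± 0.013 in controls and 13.8 ± 1.55 after co-culture. Summed over all beta chain genes, FPKM was 7.17 ± 0.142 in controls and 2.51 ± 0.184 after co-culture. The beta sum was below the level of Lamc1 in each sample.

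Both abundant alpha chains fell. Lama3, the alpha 3 chain of epithelial laminins, had 37.1, 34.5 and 28.5 CPM in the controls and 14.4, 15.05 and 14.97 CPM after co-culture, 2.26-fold lower with no overlap (log2 fold change -1.17 ± 0.09 SE, adjusted p = 1.17e-12). Lama5, the alpha 5 chain of vascular basement membranes, had 7.71, 5.77 and 7.01 CPM in the controls and 6.27, 5.54 and 3.55 CPM after co-culture (log2 fold change -0.42 ± 0.17 SE, adjusted p = 0.0444). Its groups overlapped and the call was lost in 7 of 16 alternatives, among them the omission of control replicate 1 (adjusted p = 0.177), control replicate 3 (0.0945), co-cultured replicate 2 (0.0598) or co-cultured replicate 3 (0.281). The summed FPKM of alpha chains was 4.11 ± 0.427 in controls and 2.04 ± 0.0871 after co-culture. The low members Lama2 and Lama4 were not called, with means of at most 1.14 CPM in either group, and Lama1, Lamb3 and Lamc3 were near the floor. Altogether 2 of 8 tested laminin genes rose (25%) and 3 fell (37.5%), where 25.9% of all genes tested rose and 25% fell.

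**Figure D3:**
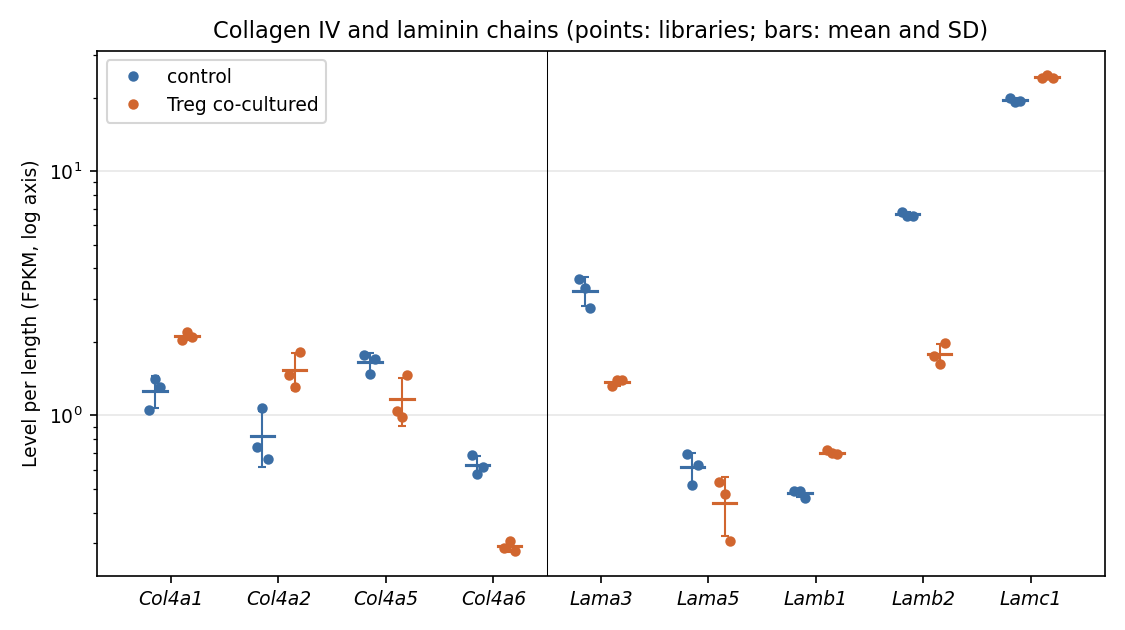
FPKM (y axis, log scale) of 4 collagen IV chains and 5 laminin chains, with one point per library and bars for mean and SD of the 3 libraries of a group. Col4a1 and Col4a2 are higher and Col4a6 and Lamb2 lower in every co-cultured library, while Lamc1 stays above the other chains in both groups.

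Collagen IV genes are arranged in head-to-head pairs, and the pairs moved in opposite directions. Col4a1, the alpha 1 chain of the main basement membrane network (chromosome 8, 11198423 to 11312826, minus strand), had 6.76, 9.18 and 8.53 CPM in the controls and 13.9, 14.8 and 14.2 CPM after co-culture (log2 fold change 0.82 ± 0.12 SE, adjusted p = 6.06e-07). Col4a2, its partner chain (chromosome 8, 11312805 to 11449287, plus strand), had 4.67, 6.75 and 4.22 CPM in the controls and 9.77, 8.56 and 12.01 CPM after co-culture (log2 fold change 0.97 ± 0.16 SE, adjusted p = 1.25e-05). Both rose without overlap, 1.76-fold and 1.94-fold. Their annotated starts overlap by 22 bases, which is 0.295% and 0.332% of their exonic lengths.

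The other pair, on the X chromosome, has 1308 bases between its starts. Col4a6, the alpha 6 chain (chromosome X, 141165403 to 141474076, minus strand), was a low member with 4.44, 3.75 and 4.03 CPM in the controls and 1.96, 2.08 and 1.896 CPM after co-culture, 2.06-fold lower with no overlap (log2 fold change -1.04 ± 0.20 SE, adjusted p = 4.75e-05). Col4a5, the alpha 5 chain (chromosome X, 141475385 to 141689234, plus strand), had 11.2, 9.46 and 10.9 CPM in the controls and 7.06, 6.58 and 9.77 CPM after co-culture. Co-cultured replicate 3 lay within the control range. The gene was called lower (log2 fold change -0.44 ± 0.14 SE, adjusted p = 0.00768), but without co-cultured replicate 2 the call was lost (adjusted p = 0.0728). Summed over Col4a1 and Col4a2, FPKM was 2.09 ± 0.358 in controls and 3.65 ± 0.245 after co-culture. For Col4a5 and Col4a6 the sum was 2.28 ± 0.203 and 1.46 ± 0.25. The remaining pair, Col4a3 and Col4a4, was near the floor, with at most 12 counts in any library.

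The RefSeq windows of both pairs (GRCm38.p6, 250 bases before to 50 after each RefSeq start) are shown because the genes of a pair start next to each other and moved the same way. Those of Col4a1 (chr8:11312777-11313076, minus strand) and Col4a2 (chr8:11312555-11312854, plus strand) overlap by 78 bases, chr8:11312777-11312854, which stand in capitals and read as reverse complements of each other. Those of Col4a5 (chrX:141475169-141475468, plus strand) and Col4a6 (chrX:141474027-141474326, minus strand) do not overlap, and the RefSeq start of Col4a5 lies 34 bases from its GENCODE start. Capitals there mark a GC box (GGGCGG or its reverse complement).
Col4a1: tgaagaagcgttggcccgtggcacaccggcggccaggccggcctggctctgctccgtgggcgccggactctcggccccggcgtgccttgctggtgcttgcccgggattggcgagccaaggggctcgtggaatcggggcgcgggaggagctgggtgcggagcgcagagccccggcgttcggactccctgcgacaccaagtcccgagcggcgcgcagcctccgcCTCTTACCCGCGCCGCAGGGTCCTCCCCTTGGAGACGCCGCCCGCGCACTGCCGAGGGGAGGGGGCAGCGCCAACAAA
Col4a2: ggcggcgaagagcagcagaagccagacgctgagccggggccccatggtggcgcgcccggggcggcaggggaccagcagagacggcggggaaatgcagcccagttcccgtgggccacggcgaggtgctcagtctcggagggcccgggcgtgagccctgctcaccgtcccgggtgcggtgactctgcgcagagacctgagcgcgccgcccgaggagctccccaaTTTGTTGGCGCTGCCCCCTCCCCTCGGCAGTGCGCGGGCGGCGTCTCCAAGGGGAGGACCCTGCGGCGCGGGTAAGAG
Col4a5: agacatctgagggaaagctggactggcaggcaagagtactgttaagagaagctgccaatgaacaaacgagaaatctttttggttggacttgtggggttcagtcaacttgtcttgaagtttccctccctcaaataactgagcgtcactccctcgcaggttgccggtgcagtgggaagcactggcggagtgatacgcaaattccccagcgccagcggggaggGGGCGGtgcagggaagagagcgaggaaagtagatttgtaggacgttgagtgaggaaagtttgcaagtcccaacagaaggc
Col4a6: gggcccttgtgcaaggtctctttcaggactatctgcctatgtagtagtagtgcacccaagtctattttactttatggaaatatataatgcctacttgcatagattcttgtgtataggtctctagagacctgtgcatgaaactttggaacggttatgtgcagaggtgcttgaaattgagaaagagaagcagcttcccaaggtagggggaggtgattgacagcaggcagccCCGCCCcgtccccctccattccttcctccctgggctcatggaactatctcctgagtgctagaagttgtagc
The Col4a1 and Col4a2 windows are 74% and 73.7% G or C, and those of Col4a5 and Col4a6 52.7% and 48.3%. All 4 hold GGGCGG on a strand, 3 times in the Col4a2 window and 1 time in each of the others, where 35.7% of all windows hold it. The match in the Col4a1 window lies in the 78 shared bases. It is also 1 of the 3 in the Col4a2 window, so this site was counted in both. CCAAT was found in the windows of Col4a1, Col4a2 and Col4a5, and occurs in 37.4% of all windows. No match was found in these 4 windows for TATAAA, for the AP-1 letters TGANTCA (7.81% of all windows), for the interferon-stimulated response element letters (ISRE, GAAA, any 2 bases and GAAA, 3.44%) or for the STAT letters (GAS, TTCNNNGAA, 8.3%), each on both strands. Besides its TATAAA, the Postn window held none of the letters searched.

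Among the remaining abundant collagens, Col18a1 and Col14a1 rose and Col5a1 fell. Col18a1 encodes the collagen XVIII chain that carries endostatin (chromosome 10, 77052178 to 77166548, minus strand) and had 9.89, 9.69 and 9.85 CPM in the controls and 27.2, 30.1 and 26.4 CPM after co-culture. The SD of the controls was 0.103 CPM, and the rise was 2.84-fold (log2 fold change 1.51 ± 0.09 SE, adjusted p = 1.52e-15). Col14a1, a collagen that associates with fibrils (chromosome 15, 55307750 to 55520803, plus strand), had 3.36, 2.71 and 3.94 CPM in the controls and 12.2, 12.7 and 11.4 CPM after co-culture, 3.62-fold higher (log2 fold change 1.84 ± 0.14 SE, adjusted p = 9.91e-13). All co-cultured samples of both genes lay above all controls. Col5a1, a fibrillar chain of collagen V, had 8.25, 8.83 and 6.004 CPM in the controls and 5.38, 3.22 and 5.35 CPM after co-culture and fell without overlap (log2 fold change -0.72 ± 0.18 SE, adjusted p = 0.00189).

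The fibrillar collagens I and V (alpha 2) and collagen XII were abundant and not called. Col1a1, a chain of type I collagen, had 19.5, 27.9 and 16.1 CPM in the controls and 16.1, 13.1 and 19.5 CPM after co-culture (log2 fold change -0.37 ± 0.27 SE, adjusted p = 0.32). Col1a2, its partner, had 8.798, 6.29 and 11.4 CPM in the controls and 7.48, 4.64 and 8.07 CPM after co-culture (log2 fold change -0.40 ± 0.24 SE, adjusted p = 0.203). Both pairs of groups overlapped, and Col1a2 was called lower without control replicate 2 (log2 fold change -0.59, adjusted p = 0.015) and without the low-count filter (0.0117). Col5a2 had 7.89, 9.69 and 6.14 CPM in the controls and 7.25, 5.39 and 6.46 CPM after co-culture, with an adjusted p of 0.109 that became 0.016 without control replicate 3 and 0.046 with upper-quartile scaling. Col12a1 had 5.08, 6.87 and 4.77 CPM in the controls and 5.57, 4.97 and 5.395 CPM after co-culture (adjusted p = 0.796). Control 2, the smallest library, had the highest Col1a1 and the lowest Col1a2 of the controls, and the FPKM ratio of Col1a1 to Col1a2 was 2.42 ± 1.41 in controls and 2.23 ± 0.304 after co-culture.

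**Figure D4:**
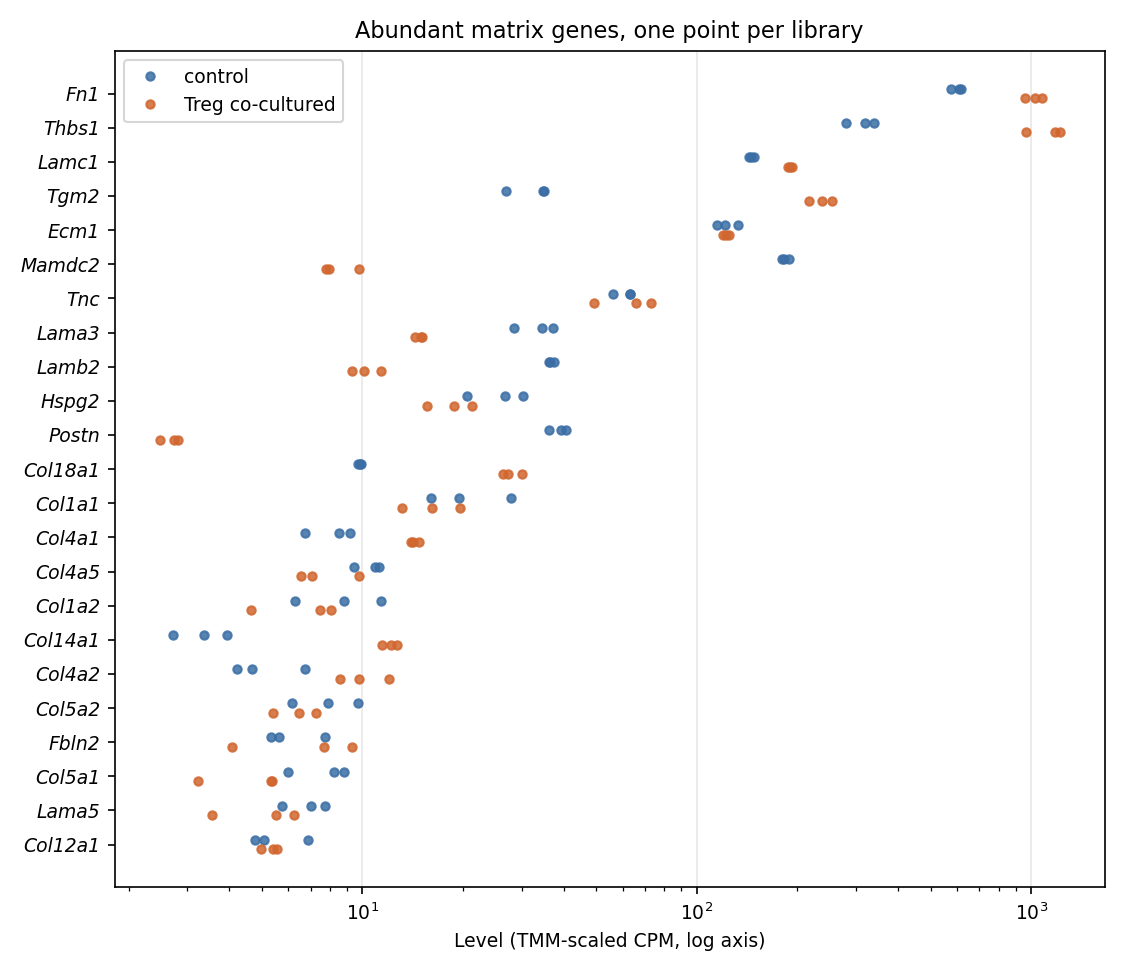
Level of the 23 abundant matrix genes (x axis, TMM-scaled CPM, log scale), with one point per library and genes in order of their mean. The groups are far apart for Tgm2, Mamdc2, Postn, Lamb2 and Col18a1, and overlap for Ecm1, Tnc, Col1a1, Col1a2 and Col12a1.

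Low collagens mostly fell or were not called. Among 18 tested genes there were 8 falls and 1 rise, with 9 not called, against 20.5% lower and 11.7% higher among all tested genes below 5 CPM. Col2a1, the fibrillar collagen of cartilage, fell from 7.93 ± 1.63 to 1.27 ± 0.547 CPM (log2 fold change -2.63 ± 0.23 SE, adjusted p = 2.66e-10). Col8a1, a short-chain collagen, fell from 6.11 ± 1.97 to 2.97 ± 0.676 CPM (adjusted p = 4.75e-04). Col15a1, a basement membrane zone collagen, fell from 3.602 ± 0.533 to 1.46 ± 0.239 CPM (adjusted p = 1.23e-05). In CPM the groups of all 3 genes did not overlap. For Col8a1 they were close, with control 2 at 3.87 CPM and co-cultured replicate 3 at 3.45 CPM. Col6a1, a chain of the beaded collagen VI filaments, fell from 3.95 ± 0.452 to 2.602 ± 0.3001 CPM (adjusted p = 0.0101). That call was lost without control replicate 2 (0.0517) and with DESeq2 (0.0585). Its partners Col6a2 and Col6a3 were not called (adjusted p = 0.119 and 0.337), and Col6a2 was called lower without control replicate 1 (0.0173).

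Col20a1 fell from 3.87 ± 0.412 to 1.905 ± 0.555 CPM (adjusted p = 2.39e-04). Col23a1, a transmembrane collagen, fell from 1.68 ± 0.425 to 0.4901 ± 0.436 CPM (adjusted p = 8.85e-04). Col24a1 fell from 1.55 ± 0.4602 to 0.252 ± 0.1903 CPM (adjusted p = 1.64e-05). The last 2 rest on few reads and passed the low-count filter only because all controls passed it, so their falls, counted among the 8, are a description. Col23a1 had 45, 21 and 39 counts in the controls and 5, 21 and 5 after co-culture, and without co-cultured replicate 2 its log2 fold change went from -1.78 to -2.80. Col24a1 had 34, 19 and 44 counts in the controls and 6, 9 and 1 after co-culture, and without the same library its log2 fold change went from -2.60 to -3.19. The low collagen that rose was Col11a1, a fibrillar chain, from 1.02 ± 0.364 to 2.78 ± 0.5399 CPM (log2 fold change 1.42 ± 0.28 SE, adjusted p = 7.17e-05), with no overlap. The remaining low collagens Col5a3, Col7a1, Col9a3, Col11a2, Col16a1 and Col27a1 were not called. Col3a1, a fibrillar collagen of fibroblasts, was not called at 1.51 ± 0.623 and 1.68 ± 0.357 CPM (adjusted p = 0.67).

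Of the low proteoglycans Dcn and Vcan rose and Bgn was not called. Dcn encodes decorin, a small leucine-rich proteoglycan that binds collagen and TGF-beta, and had 1, 6 and 5 counts in the controls and 19, 24 and 37 after co-culture. All co-cultured samples were above all controls (log2 fold change 2.65 ± 0.51 SE, adjusted p = 5.12e-05), but the levels were low, 0.207 ± 0.152 and 1.27 ± 0.471 CPM in controls and after co-culture. Dcn passed the low-count filter through the co-cultured libraries alone, so it could be tested only because it was high there, and its rise is a description. Vcan, which encodes the hyaluronan-binding proteoglycan versican, had 3.31, 2.65 and 2.43 CPM in the controls and 5.14, 2.74 and 5.25 CPM after co-culture. Its co-cultured replicate 2 was within the control range, and the call (log2 fold change 0.64 ± 0.22 SE, adjusted p = 0.0165) was lost in 7 of 16 alternatives, among them the omission of control replicate 2 (adjusted p = 0.0589), control replicate 3 (0.077), co-cultured replicate 1 (0.0931) or co-cultured replicate 3 (0.0972). Bgn, biglycan, a relative of decorin, was not called with 4.58, 4.67 and 4.17 CPM in the controls and 5.097, 4.45 and 4.96 CPM after co-culture (adjusted p = 0.586). Fbn1, the microfibril protein fibrillin 1, was not called either (3.65 ± 0.5904 and 3.28 ± 0.305 CPM, adjusted p = 0.532), and 20.1% of its exonic bases are shared with a gene on the other strand.

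The 22 near-floor genes were 16 collagen chains, 3 laminin chains and the named genes F13a1, Fbln1 and Lum. Lum, which encodes lumican, a keratan sulfate proteoglycan of fibrous tissue, had 0, 0 and 0 counts in the controls and 6, 2 and 0 after co-culture. F13a1, the coagulation factor XIII A chain found in many tissue macrophages, had 5, 4 and 9 counts in the controls and 24, 12 and 9 after co-culture. Fbln1, fibulin 1, had 7, 4 and 9 counts in the controls and 2, 10 and 7 after co-culture. Apart from Col8a2, none of these genes passed 24 counts in any library, and 14 had 10 counts or fewer over all 6. Col8a2, the partner chain of Col8a1, had 29, 0 and 102 counts in the controls and 2, 4 and 5 after co-culture. Control 3 held most of these counts and control 2 none, and Col8a1 was also lowest in control 2 among controls, at 67 counts against 152 and 165. Col6a5 had no count in any library, and Col10a1, Col13a1, Col17a1, Col19a1, Col22a1, Col25a1, Col26a1, Col28a1, Col6a4, Col6a6, Col9a1 and Col9a2 had at most 6.

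Markers of other cell types were detected at unequal levels. In the list of fibroblast and meningeal markers, 6 genes outside the collagens and matrix genes above summed to 0.733 to 0.998 CPM in controls and 2.27 to 3.35 CPM after co-culture. Dpt, Gjb2 and Slc6a13 were at 0 in every library, and Pdgfra rose from 0.484 ± 0.0741 to 1.86 ± 0.577 CPM (adjusted p = 4.03e-05). Of the 11 entries of that list, 5 were tested, of which Pdgfra and Dcn rose. Dcn passed the low-count filter through the co-cultured libraries alone. Pdgfra had 11, 7 and 12 counts in the controls and 33, 32 and 52 after co-culture. Both rises rest on few control reads and are a description. Pericyte and smooth muscle markers summed to 149 to 167 CPM in controls and 108 to 124 CPM after co-culture, led by Cspg4, which oligodendrocyte precursors also express, and Tagln, with Rgs5 and Kcnj8 at 0. Of 4 tested pericyte markers 3 fell.

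Endothelial markers summed to 147 to 166 CPM in controls and 110.3 to 126 CPM after co-culture, with Flt1 and Vwf highest, Cldn5 at 3 counts in all and Emcn at 0. Of 5 tested, Flt1 and Vwf fell, from 95.6 ± 5.75 to 47.03 ± 4.46 CPM (adjusted p = 2.32e-14) and from 48.999 ± 6.44 to 16.2 ± 0.427 CPM (adjusted p = 1.37e-15). The other 3 rose, namely Kdr from 6.21 ± 0.472 to 33.7 ± 3.51 CPM (adjusted p = 4.80e-20), Pecam1 from 4.17 ± 0.742 to 18.1 ± 1.01 CPM (adjusted p = 1.68e-15) and Cdh5 from 0.7798 ± 0.283 to 2.82 ± 0.355 CPM (adjusted p = 2.59e-06). Astrocyte markers summed to 34.4 to 40.5 and 35.7 to 44.8 CPM, with Aldh1l1 and Gfap highest and 2 higher and 2 lower of 8 tested. Oligodendrocyte lineage markers summed to 265 to 283 and 167 to 182 CPM, with Cspg4 and Mbp highest, 1 higher and 7 lower of 9 tested. T cell markers summed to 5.94 to 6.97 and 8.75 to 9.35 CPM, led by Cd4 and Foxp3, with Trac and Ctla4 at 0 and 1 higher and 1 lower of 3 tested. Monocyte and border macrophage markers other than F13a1 summed to 884 to 926 and 1308 to 1385 CPM, led by Ms4a7 and Mrc1, with 3 higher and 1 lower of 5 tested. In that list Ly6c2 had 1 count over all libraries, Plac8 6, Lyve1 12 and Cd163 17. Ccr2 was not called, at 1.52 ± 0.375 and 1.51 ± 0.103 CPM (adjusted p = 0.994). Over all genes tested, 25.9% rose and 25% fell. The part of these cell types in the results was not tested. In such bulk samples fewer cells of a type and less RNA per cell cannot be told apart.

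Integrin subunits that bind matrix were expressed alongside these genes. Among 13 tested subunits 5 rose and 4 fell, where 25.9% of all genes tested rose and 25% fell, and the subunits' median was 0.20 (log2 fold change). Itgb3, a subunit of receptors for fibronectin and other RGD-bearing ligands, fell from 53.1 ± 4.599 to 7.48 ± 1.35 CPM (adjusted p = 4.39e-19), Itga9, which binds tenascin C, rose from 55.9 ± 2.67 to 139 ± 12.5 CPM (adjusted p = 9.05e-18), and Itgav rose from 170.1 ± 7.26 to 375 ± 40.7 CPM (adjusted p = 1.17e-12). Of 15 other matrix receptors, 6 rose and 5 fell (median 0.01), against the same shares of all genes. Sdc3, a heparan sulfate syndecan, rose from 1340.2 ± 40.5 to 3627 ± 101 CPM (adjusted p = 1.03e-21). Cd47 and Cd36, both receptors of thrombospondin 1, rose from 179 ± 4.94 to 424 ± 33.9 CPM (adjusted p = 3.67e-19) and from 768 ± 13.99 to 1567 ± 115 CPM (adjusted p = 3.26e-17).

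Of 23 tested genes of collagen folding, processing, export and cross-linking, 6 rose, 4 fell and 13 did not pass (median log2 fold change -0.02). Not all of these genes encode enzymes. Of all genes tested, 50.9% were called. The lysyl hydroxylases Plod3 and Plod1 rose from 168 ± 5.77 to 363 ± 23.9 CPM (adjusted p = 2.10e-18) and from 321 ± 5.82 to 583 ± 10.5 CPM (adjusted p = 1.62e-16), and P4ha1, a prolyl hydroxylase subunit, rose from 171 ± 5.02 to 284 ± 20.1 CPM (adjusted p = 1.49e-13). Of 25 tested genes that make, edit or break down hyaluronan and proteoglycan chains, 10 rose and 7 fell (median 0.01). Over all genes, 25.9% were higher and 25% lower. The tally does not separate synthesis from breakdown. Xylt2, which starts glycosaminoglycan chains, rose from 242 ± 4.29 to 659 ± 30.9 CPM (adjusted p = 4.46e-22). Sulf2, a heparan sulfate 6-O-sulfatase, fell from 73.02 ± 3.91 to 20.1 ± 1.72 CPM (adjusted p = 5.21e-21) and Hpse, heparanase, fell from 58.5 ± 1.79 to 18.2 ± 0.937 CPM (adjusted p = 6.60e-20).

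Matrix and matricellular genes outside the rule were split, 13 higher and 11 lower of 34 tested (median -0.03), again beside 25.9% and 25% of all genes. Tgfbi, a secreted integrin ligand induced by TGF-beta, rose from 31.8 ± 2.53 to 194 ± 15.3 CPM (adjusted p = 6.75e-24). Ncan, the proteoglycan neurocan, rose from 27.8 ± 2.096 to 85.2 ± 7.28 CPM (adjusted p = 9.62e-19) and Emilin2, an elastin-associated glycoprotein, rose from 25.96 ± 1.61 to 61.5 ± 6.59 CPM (adjusted p = 8.38e-15). The medians of these 5 lists lay between -0.03 and 0.20, beside -0.01 over all genes tested.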

How the data were processed

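Primary mouse microglia were profiled by RNA sequencing, 3 control and 3 Treg co-cultured samples. Per the labels' protocols, total RNA isolated in Trizol was converted to cDNA (SMART-Seq HT), tagmented (Nextera XT) and sequenced paired-end, with no molecular identifiers recorded. Per the submitters' processing notes, STAR (no version given) and HTSeq 0.11.2 were used with GRCm38. The authors deposited raw counts per gene, in a sheet with identifiers (used here) and in a sheet with gene names (all 72 matrix genes had equal counts), and FPKM, normalized for gene length and library size, whose implied gene length was constant across libraries within 1e-04 for 12011 of 12011 genes checked.

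edgeR 4.0.16 (R 4.3.3, limma 3.58.1) was fitted to the deposited counts of all genes that passed filterByExpr, with TMM scaling, robust dispersions and group as the only term. The SE is the log2 fold change divided by the root of the F statistic. The p values of this fit were adjusted over its 13274 genes, and those of each alternative over the genes tested in it (21905 without the filter, 16561 with DESeq2, 13530 to 13637 with a library left out). Alternatives were other scalings, no filter, DESeq2 1.42.0, limma-voom, limma-trend on log2(FPKM + 0.1) and log2(FPKM + 1), the replicate block, the gene name sheet and omission of each library. Level comparisons between genes use FPKM, except the level classes and shares of counts, which are not corrected for length. Bgn, at a mean of 1.74 FPKM, is thus a low member, and Col12a1, at 0.473 FPKM, an abundant one. The test was checked on simulated counts. Coordinates come from GENCODE M21 (GRCm38, 72 of 72 identifiers found) and count from 1.

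The matrix genes, the pathway and marker lists and the tests were chosen with earlier results of these data known. Abundant members are described in full, low members where called or where partners of a described chain, and of each pathway list the 3 called genes with the smallest adjusted p and a mean of at least 5 CPM. Genes named beyond this rule were chosen after their values were seen. Of 32 collagen folding and cross-linking, 67 other matrix and 31 hyaluronan and proteoglycan symbols listed, 28, 62 and 30 had a row. Replicate numbers did not pair the samples: deviations of same-numbered samples from their group means correlated between -0.0215 and -0.00146 across genes. Values of 1 low member are not reported here.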

Additional observations from a re-analysis of the deposited data

How the results depend on the processing

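Each tested matrix gene was refitted under 16 alternatives. None reversed a call, and 39 of 50 genes, including 23 of 29 called ones, kept their side of the threshold in all of the alternatives that gave a value. The exceptions, besides those given in the report, were losses of Nid1, Vcan and Lama5 in both FPKM fits, of Vcan and Lama5 with DESeq2, and a gain of Col1a2 with the replicate block (adjusted p = 0.0146). The number of matrix genes called higher was 11 to 15 and lower 14 to 17 when each library was left out, and 11 higher and 14 lower with DESeq2. With the replicate block 13 were higher and 17 lower, and all genes tested gave 6755 calls. Over all genes, upward calls made up 50.8% of calls under TMM, 41% under library totals and 40% under upper-quartile scaling, while the matrix genes stayed at 13 higher under both. As a share of summed FPKM, the matrix genes took 0.0892% in controls and 0.137% after co-culture. The abundant class would hold 37 genes at a cut of 2 CPM and 14 at 10 CPM. Members near the floor, and calls on few reads such as Dcn and Col24a1, are limited by depth.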
